A study of Mus musculus with 6 samples.

Results

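The genes of the nuclear factor kappa B (NF-κB) subunits and of their inhibitors were examined in C2C12 cells, a mouse myoblast line that fuses into myotubes when serum is lowered. The 5 subunit genes are Nfkb1, Nfkb2, Rel, Rela and Relb, and the 5 inhibitor genes are Nfkbia, Nfkbib, Nfkbie, Nfkbiz and Tnfaip3. Members were chosen by name, and the transcripts of each gene in the deposited table were summed. All 10 had a row, among 11835 genes in all. Total RNA was sequenced from 3 samples labelled siNC, transfected with a negative control siRNA, and 3 labelled siCNN3, transfected with an siRNA against Cnn3, which encodes calponin 3, an actin-binding protein. All 6 libraries came from 1 cell line, are labelled as myotubes and were differentiated in medium with 2% horse serum. The labels give neither the number of days in that medium nor whether replicates were separate transfections, so p-values measure only the spread between these samples. Levels are in FPKM, fragments per kilobase of transcript scaled to the mapped fragments of the library, which corrects for transcript length.

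NF-κB is a family of dimeric transcription factors. Rela, Rel and Relb encode subunits with a transactivation domain, whereas Nfkb1 and Nfkb2 encode precursor proteins that are trimmed to DNA-binding subunits. Nfkbia, Nfkbib and Nfkbie encode inhibitors that keep the dimers in the cytoplasm until they are phosphorylated by the IκB kinase complex and degraded. Nfkbiz encodes a nuclear member of the inhibitor family, and Tnfaip3 encodes a ubiquitin-editing enzyme that damps signalling upstream of that kinase. Most of this control acts on protein location and stability, which mRNA levels do not show. Several of the genes, Nfkbia and Tnfaip3 among them, are themselves textbook targets of NF-κB and form negative feedback loops. In skeletal muscle the pathway is known for its roles in myoblast growth, inflammation and wasting.

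Because these genes can answer to the factors they encode or restrain, their promoters were searched for the κB consensus, the 10-letter motif to which NF-κB binds. RefSeq promoter windows (GRCm38.p6, 250 bases before to 50 after the start site) were found for 7 of the 10 genes, with 10 windows among them. Nfkb1, Relb and Nfkbiz were not in the table of promoters. A match on either strand, overlapping matches included, was present in 5 of the 7 genes, namely Nfkb2, Rel, Nfkbia, Nfkbie and Tnfaip3. For scale, 9.55% of the 27025 genes in that table had at least 1 match. No match was found in the windows of Rela and Nfkbib, which says only that these letters are not in those windows. The matches of 6 of the windows are printed here in capitals with their flanking bases, since they are the feature that these promoters share, and each run is written 5′ to 3′ on the strand of the gene.
Nfkb2, promoter 1, chr19:46304678-46304736, plus strand: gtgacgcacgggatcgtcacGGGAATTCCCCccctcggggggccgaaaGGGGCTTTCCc
Nfkb2, promoter 3, chr19:46305685-46305734, plus strand: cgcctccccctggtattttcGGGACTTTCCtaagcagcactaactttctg
Rel, chr11:23771031-23771081, minus strand: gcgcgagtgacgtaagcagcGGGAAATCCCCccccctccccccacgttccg
Nfkbia, chr12:55492648-55492696, minus strand: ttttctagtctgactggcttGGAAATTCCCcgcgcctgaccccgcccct
Nfkbie, chr17:45555574-45555623, plus strand: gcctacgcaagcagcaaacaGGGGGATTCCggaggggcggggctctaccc
Tnfaip3, promoter 2, chr10:19015411-19015555, minus strand: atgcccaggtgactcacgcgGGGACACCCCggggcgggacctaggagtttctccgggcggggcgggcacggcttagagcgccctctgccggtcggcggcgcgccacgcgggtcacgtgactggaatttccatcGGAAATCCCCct
The match of Nfkb2 promoter 3 also lies in promoter 2, where it begins 11 bases after the start site. Promoter 2 holds 1 further match, not printed, on the opposite strand and beginning at position −236 from its start site. In Nfkb2 promoter 1, 3 matches began 39, 38 and 11 bases before the start site, so that 2 of them overlap. Of all promoters, 0.186% held 3 or more matches. In Rel 2 overlapping matches began 92 and 91 bases before the start, in Tnfaip3 2 separate ones at 125 and 12 bases, and 1.22% of all promoters held at least 2. Nfkbia had 1 match beginning 29 bases and Nfkbie 1 match beginning 106 bases before the start. A match describes the sequence and is not evidence of binding in these cells.

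The targeted gene was lower in the siCNN3 group. Cnn3 (ENSMUSG00000053931, chromosome 3, 121426497 to 121458207) had 62.8, 61.4 and 62.8 FPKM in the siNC libraries and 19.0, 39.2 and 25.6 FPKM in the siCNN3 libraries, so the groups did not overlap. The siCNN3 mean was 44.8% of the siNC mean, and siCNN3 replicate 2 kept the most Cnn3. The log2 fold change of −1.19 (SE 0.242, n = 3 per group) had an adjusted p of 0.0669 in limma. Over 16 settings, the reported fit and 15 alternatives, Cnn3 passed in 1, without siCNN3 replicate 2 (−1.46, adjusted p = 0.048). Leaving out 1 library at a time gave −1.46 to −0.95, and the highest adjusted p of the 16 settings was 0.225. Summed FPKM ran from 322621 to 355591 per library, and the sequencing depth is unknown. In limma on log2(FPKM + 1), 239 of 11593 tested genes passed an adjusted p of 0.05, and 83.7% of them were higher in siCNN3, against 68.2% after quantile normalization. Of the muscle markers desmin was well expressed, with 84.3 to 125.1 FPKM, but Myog, the gene of the differentiation factor myogenin, had 0.485 to 3.07 FPKM and muscle creatine kinase, Ckm, was below 1 FPKM in every library and listed at 0 in siCNN3 replicates 1 and 3. The summed muscle markers ran from 173.9 to 204.6 FPKM in siNC and from 116.7 to 128.5 FPKM in siCNN3, and 2 of 9 tested, Acta1 and Mylpf, both of the contractile apparatus, fell, beside 0.336% of all tested genes. At an unadjusted p below 0.05, 6 of the 9 were lower and 1 was higher, beside 6.14% and 9.94% of all tested genes. The higher one was Myf5, a factor of early myoblasts, with 3.55, 5.64 and 4.84 FPKM in siNC and 12.95, 11.4 and 5.40 FPKM in siCNN3 (log2 fold change 0.88, adjusted p = 0.238 in limma). Desmin made up most of the sum. In bulk RNA, fewer cells of a type and less RNA per cell cannot be told apart.

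None of the 10 NF-κB genes passed the test for a change. All 10 passed the filter of a mean of 0.5 FPKM, and 0 passed the adjusted threshold in limma, where 2.06% of all tested genes did. At an unadjusted p below 0.05 the count was again 0, against 16.1% of all tested genes. The siNC and siCNN3 values overlapped for each member, whereas 23.1% of all tested genes had groups that did not overlap. The siCNN3 mean was above the siNC mean on the log2 scale for 7 members and below it for 3, with a median log2 fold change of 0.06 beside 0.03 over all tested genes. The exact two-sided permutation test of single members, which cannot go below 0.1 with 3 against 3, gave p from 0.3 to 1.

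**Figure D1:**
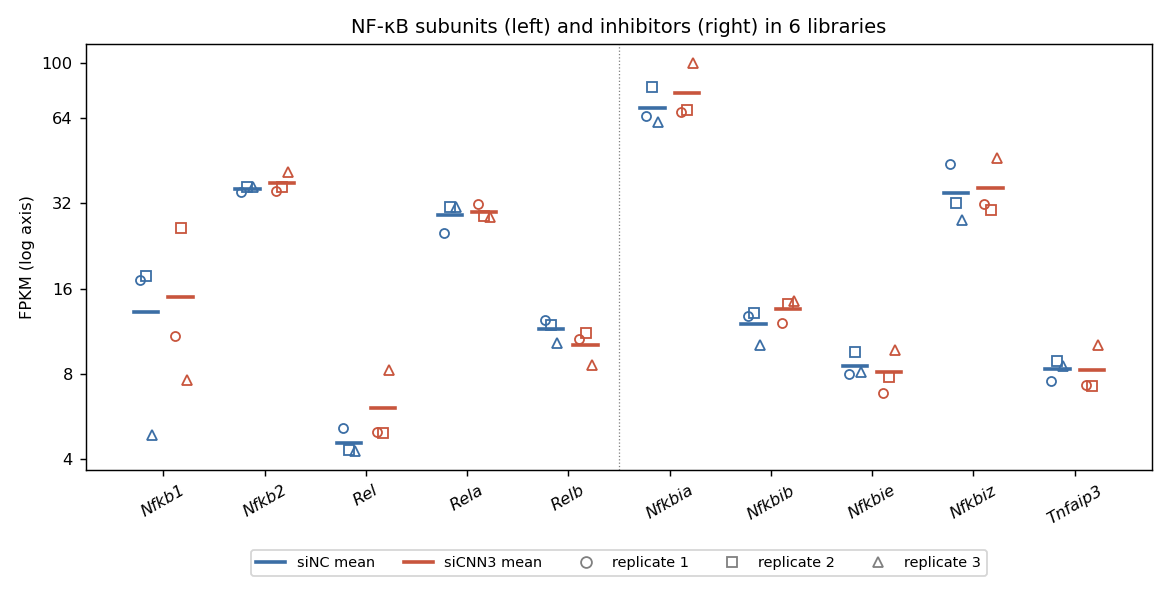
FPKM of each of the 10 genes (vertical axis, logarithmic) in the 3 siNC and 3 siCNN3 libraries, with points for libraries and a bar for each group mean. The groups overlap for all 10 genes, Nfkb1 spreads from 4.87 to 26.3 FPKM, and siCNN3 replicate 3 is the highest library for 7 of the genes.

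A p that misses the threshold does not show equal levels, so the intervals set the limit on what may have been missed. The 95% interval of the difference lay within 1 log2 unit of 0 in either direction for 9 of the 10 genes, which was true of 78.4% of all tested genes, and Nfkb1 was the exception. The median absolute log2 fold change of the members was 0.118 and that of all tested genes 0.206. The median standard errors were 0.167 and 0.185. Log2 fold changes are on the log2(FPKM + 1) scale and understate the changes of genes with low values.

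**Figure D2:**
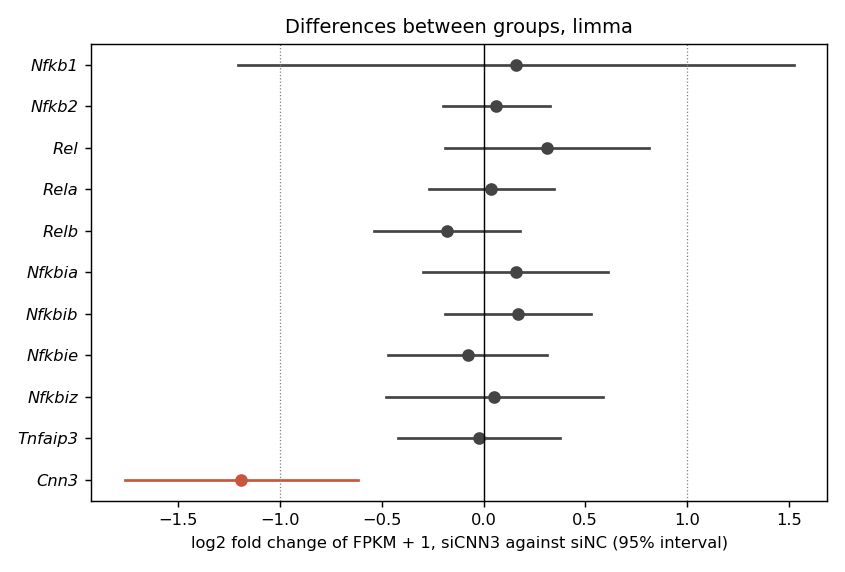
Log2 fold change of FPKM + 1, siCNN3 against siNC (horizontal axis), with its 95% interval for each of the 10 genes and Cnn3. All 10 member intervals include 0, from the narrow one of Nfkb2 (−0.20 to 0.33) to the wide one of Nfkb1 (−1.21 to 1.53), and the interval of Cnn3 (−1.76 to −0.62) does not.

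Among the subunits, Rela and Nfkb2 were the steadiest. Rela (ENSMUSG00000024927, chromosome 19, 5637483 to 5648130), the gene of the main transactivating subunit, had 25.2, 31.0 and 31.0 FPKM in siNC and 31.9, 28.8 and 28.7 FPKM in siCNN3. The siCNN3 values lay inside the siNC range but for replicate 1, and the log2 fold change was 0.04 (SE 0.130, adjusted p = 0.918 in limma). Nfkb2 (ENSMUSG00000025225, chromosome 19, 46304320 to 46312385), the precursor gene of the non-canonical pathway, had 35.0, 36.6 and 36.6 FPKM in siNC and 35.5, 36.5 and 41.4 FPKM in siCNN3. Its coefficient of variation over the 6 libraries was 6.21%, with a log2 fold change of 0.06 (SE 0.111, adjusted p = 0.823), and siCNN3 replicate 3 was the one library that stood above the others.

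Rel and Relb, both best known from immune cells, were at lower levels. Rel (ENSMUSG00000020275, chromosome 11, 23736847 to 23770970) had 5.15, 4.30 and 4.27 FPKM in siNC and 4.98, 4.97 and 8.25 FPKM in siCNN3. Its log2 fold change of 0.31 (SE 0.211, interval −0.19 to 0.81) had the smallest p of the members, 0.182 before and 0.519 after adjustment in limma, and 1 library, siCNN3 replicate 3, held its high value. Relb (ENSMUSG00000002983, chromosome 7, 19606217 to 19629438), the usual partner of the processed Nfkb2 product, had 12.4, 11.9 and 10.3 FPKM in siNC and 10.7, 11.1 and 8.57 FPKM in siCNN3. It was the one gene of the 10 with its lowest value in siCNN3 replicate 3, and its log2 fold change was −0.18 (SE 0.151, interval −0.54 to 0.18, adjusted p = 0.608).

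Nfkb1 varied most. Nfkb1 (ENSMUSG00000028163, chromosome 3, 135584655 to 135691547), the precursor gene of the canonical pathway, had 17.1, 17.7 and 4.87 FPKM in siNC and 10.8, 26.3 and 7.59 FPKM in siCNN3. Both groups held a low and a high library, and the coefficient of variation was 55.9%. The log2 fold change was 0.16 (SE 0.576, adjusted p = 0.922), and the value was −0.39 without siNC replicate 3 and −0.32 without siCNN3 replicate 2, so its direction was set by single libraries.

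Among the inhibitors, Nfkbia (ENSMUSG00000021025, chromosome 12, 55489410 to 55492647), whose product IκBα is the classical cytoplasmic inhibitor, was the most abundant. It had 65.0, 82.4 and 61.8 FPKM in siNC and 67.5, 68.4 and 99.95 FPKM in siCNN3, with a log2 fold change of 0.16 (SE 0.192, adjusted p = 0.734). Without siCNN3 replicate 3, the highest library, the log2 fold change was −0.026. Nfkbib (ENSMUSG00000030595, chromosome 7, 28758251 to 28767512), the gene of IκBβ, had 12.8, 13.1 and 10.1 FPKM in siNC and 12.1, 14.1 and 14.5 FPKM in siCNN3, and its log2 fold change was 0.17 (SE 0.151, adjusted p = 0.628).

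Nfkbie (ENSMUSG00000023947, chromosome 17, 45555703 to 45563169), the gene of IκBε, had 7.98, 9.57 and 8.11 FPKM in siNC and 6.82, 7.80 and 9.68 FPKM in siCNN3. Both the lowest and the highest of the 6 values were in the siCNN3 group, and the log2 fold change was −0.08 (SE 0.165, adjusted p = 0.853). Tnfaip3 (ENSMUSG00000019850, chromosome 10, 19000910 to 19015657) had 7.54, 8.85 and 8.51 FPKM in siNC and 7.32, 7.23 and 10.2 FPKM in siCNN3. Its group means of 8.30 ± 0.681 and 8.23 ± 1.66 FPKM (SD, n = 3) were the closest of the 10 in ratio, with a log2 fold change of −0.02 (SE 0.168, adjusted p = 0.963).

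Nfkbiz (ENSMUSG00000035356, chromosome 16, 55811375 to 55838899), the nuclear co-regulator IκBζ, was the second inhibitor in abundance. It had 44.1, 32.2 and 28.1 FPKM in siNC and 31.7, 30.4 and 46.3 FPKM in siCNN3, so each group held 1 high library. The log2 fold change was 0.05 (SE 0.225, adjusted p = 0.936), and it was −0.13 without siCNN3 replicate 3.

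The order of the levels, which FPKM allows because it is per length, ran from Nfkbia at a mean of 74.2 FPKM over the 6 libraries through Nfkb2 (36.9), Nfkbiz (35.5), Rela (29.5), Nfkb1 (14.1), Nfkbib (12.8), Relb (10.8), Nfkbie (8.33) and Tnfaip3 (8.27) to Rel (5.32). Nfkbia lay above 93.0% of all tested genes and Rel above 31.1%. The range of Nfkbia did not overlap that of Nfkb2, and every other pair of neighbours in the order overlapped in range. Within each of the 6 libraries, however, Rela was above Nfkb1 and Tnfaip3 above Rel.

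Summed by role, the 5 subunits came to 94.9, 101.6 and 87.1 FPKM in siNC and 93.9, 107.7 and 94.5 FPKM in siCNN3. The 5 inhibitors came to 137.3, 146.1 and 116.7 FPKM in siNC and 125.5, 127.9 and 180.5 FPKM in siCNN3. The ratio of inhibitor to subunit mRNA was 1.41 ± 0.059 in siNC and 1.48 ± 0.382 in siCNN3 (SD, n = 3), with the lowest (1.19) and the highest (1.91) of the 6 values both in siCNN3. Nfkbia alone supplied 52.2% ± 4.58 of the inhibitor sum in siNC and 54.2% ± 1.01 in siCNN3.

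The libraries that held the extremes were counted after the values were known. The highest value of 7 members (Nfkb2, Rel, Nfkbia, Nfkbib, Nfkbie, Nfkbiz and Tnfaip3) was in siCNN3 replicate 3, which held the highest value of 19.4% of all tested genes. The lowest value of 5 members (Nfkb1, Rel, Nfkbia, Nfkbib and Nfkbiz) was in siNC replicate 3, which held the lowest value of 6.41% of all tested genes. By group, the highest value of 9 members was in siCNN3 and the lowest of 7 in siNC, beside 55.1% and 55.6% of all tested genes. The genes whose log2 levels over the 6 libraries were most like those of Rel were Irf2bp2 (Pearson r = 0.992), Pdcd2l (0.991) and Foxs1 (0.989), each also highest in siCNN3 replicate 3. These correlations rest on 6 libraries of 1 cell line and are descriptions.

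The table lists 20 transcripts of the 10 genes, and 5 genes had more than 1. None passed the adjusted threshold in limma, against 0.54% of the 21658 tested transcripts, and 1, Tnfaip3-201, had an unadjusted p below 0.05, against 10.7%. The groups overlapped for all 18 that could be tested, whereas 17.9% of all tested transcripts had groups that did not. Tnfaip3-201 had 5.34, 6.13 and 2.52 FPKM in siNC and 2.52, 1.02 and 1.47 FPKM in siCNN3, a log2 fold change of −1.06 (unadjusted p = 0.0245, adjusted p = 0.359). The highest siCNN3 value and the lowest siNC value were almost the same. Tnfaip3-202 had 1.38, 2.56 and 5.48 FPKM in siNC and 4.71, 4.81 and 7.41 FPKM in siCNN3, a log2 fold change of 0.78 (adjusted p = 0.550). Tnfaip3-201 thus held 29.6% to 70.8% of the gene in siNC and 14.0% to 34.4% in siCNN3. Both transcripts have the same 2325 coding bases and are told apart by 261 bases particular to Tnfaip3-201 and 173 to Tnfaip3-202, which begin at different start sites. The short Tnfaip3-204 ran from 0.09 to 1.41 FPKM.

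**Figure D3:**
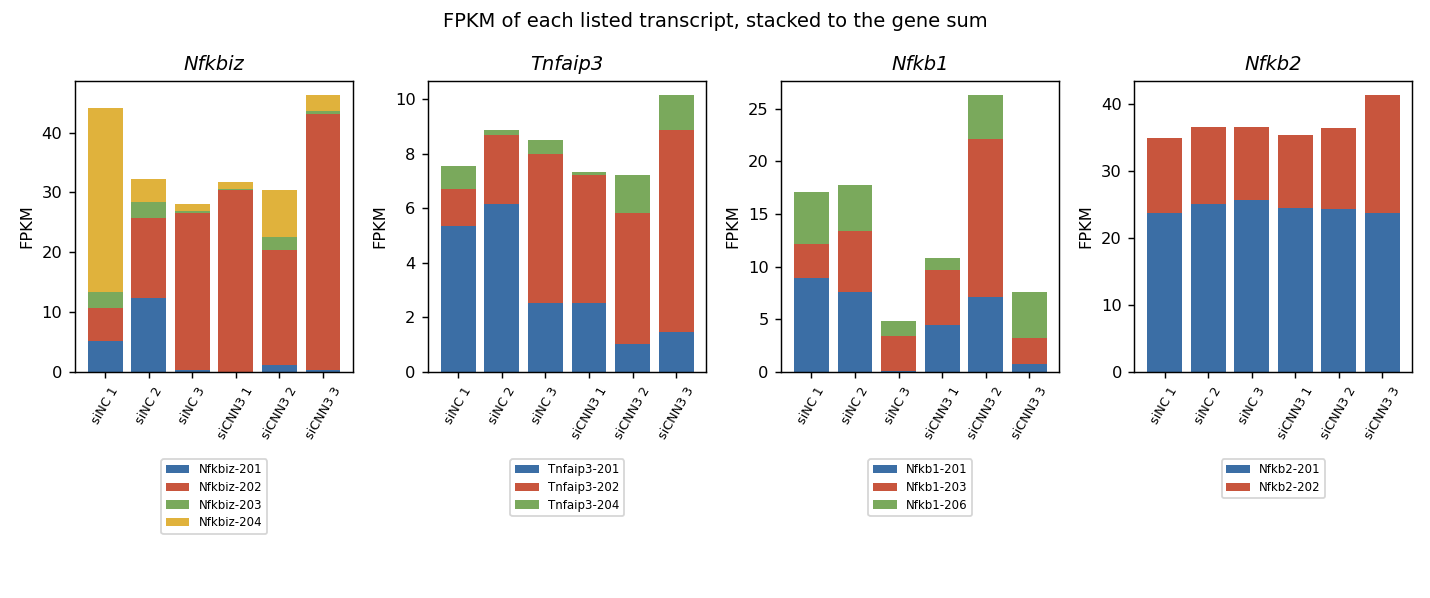
FPKM of each listed transcript of Nfkbiz, Tnfaip3, Nfkb1 and Nfkb2 (vertical axis), stacked to the gene sum in the 3 siNC and 3 siCNN3 libraries. The parts of Nfkbiz, Tnfaip3 and Nfkb1 differ between libraries of 1 group, whereas Nfkb2-201 stays between 23.8 and 25.7 FPKM.

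The transcripts of Nfkbiz differed most between libraries. Nfkbiz-202 had 5.50, 13.4 and 26.2 FPKM in siNC and 30.3, 19.3 and 42.8 FPKM in siCNN3, a log2 fold change of 1.15 (adjusted p = 0.527 in limma). Nfkbiz-201 had 5.13, 12.4 and 0.327 FPKM in siNC and 0.0011, 1.16 and 0.331 FPKM in siCNN3, a log2 fold change of −1.75 (adjusted p = 0.529), the largest in size of the 18 tested transcripts. Nfkbiz-204 had 30.6, 3.85 and 1.25 FPKM in siNC and 1.17, 7.77 and 2.68 FPKM in siCNN3, a log2 fold change of −0.77 (adjusted p = 0.827). None of the 3 separated the groups. The high Nfkbiz total of siNC replicate 1 was therefore mostly Nfkbiz-204, whereas that of siCNN3 replicate 3 was mostly Nfkbiz-202. The pair with the longer coding sequence of 2184 bases, Nfkbiz-201 and Nfkbiz-204, made up 81.2%, 50.3% and 5.63% of the gene in siNC and 3.70%, 29.4% and 6.51% in siCNN3. The remainder belonged to Nfkbiz-202 and Nfkbiz-203, which code for 1887 bases. These shares rest on few bases, since 0 bases of Nfkbiz-201, Nfkbiz-202 and Nfkbiz-203 and 23 bases of Nfkbiz-204 lie in no other listed transcript.

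The transcripts of Nfkb1 also varied between libraries, whereas Nfkb2-201 varied little. Nfkb1-201 had 8.90, 7.63 and 0.0605 FPKM in siNC and 4.47, 7.07 and 0.781 FPKM in siCNN3. Nfkb1-203, which starts inside the gene, had 15.1 FPKM in siCNN3 replicate 2 and 2.39 to 5.75 FPKM in the other libraries, and Nfkb1-206 had 1.18 to 5.00 FPKM. The libraries with the low Nfkb1 totals, siNC replicate 3 and siCNN3 replicate 3, were those with the lowest estimates of Nfkb1-201. The split is uncertain, since 496 bases of Nfkb1-201, 0 of Nfkb1-203 and 7 of Nfkb1-206 lie in no other listed transcript. Nfkb2-201 had 23.8 to 25.7 FPKM in siNC and 23.8 to 24.6 FPKM in siCNN3. Nfkb2-202, with the same 2697 coding bases and a start site inside the stretch printed for promoter 3, had 10.8 to 11.5 FPKM in siNC and 10.9, 12.2 and 17.7 FPKM in siCNN3, a log2 fold change of 0.23. Of Relb, Relb-203 held 88.7% to 99.0%, and the other 2 listed transcripts were below the filter. That share also rests on few bases, as 2 bases of Relb-203 and 6 of Relb-201 lie in no other listed transcript.

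The rest of the pathway was read from 4 lists by role. Of the ligands and receptors that start the signal, 14 of 23 could be tested, and 0 passed in limma, with 3 higher and 0 lower at an unadjusted p below 0.05 and a median log2 fold change of 0.29. Of all tested genes 9.94% were higher and 6.14% lower at that unadjusted p, with a median of 0.03. Il1rl1, the receptor for interleukin 33, had 4.52, 10.8 and 8.29 FPKM in siNC and 22.0, 18.8 and 16.8 FPKM in siCNN3 (log2 fold change 1.25, adjusted p = 0.0857). Il18, a cytokine of the interleukin 1 family, had 16.6, 23.9 and 22.5 FPKM in siNC and 45.1, 45.5 and 29.9 FPKM in siCNN3 (0.89, adjusted p = 0.0986). Neither gene overlapped between the groups, and they were the only 2 of the 14 that did not, beside 23.1% of all tested genes. Neither passed the threshold as reported. Il18 passed in 1 of the 16 settings, without siCNN3 replicate 3 (adjusted p = 0.0295 in limma), and Il1rl1 in 0. Tnf itself was below the filter, at 0.23 to 0.74 FPKM.

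Of the adaptors and kinases between receptor and inhibitor, 28 of 29 could be tested, 0 passed, 3 were higher and 0 lower at an unadjusted p below 0.05, against the same background of 9.94% and 6.14%, and the median log2 fold change was 0.05. Rnf31, the catalytic subunit of the linear ubiquitin ligase, had 4.61, 4.88 and 4.39 FPKM in siNC and 11.3, 6.68 and 10.4 FPKM in siCNN3 (log2 fold change 0.87, adjusted p = 0.0935). Myd88, the adaptor of Toll-like and interleukin 1 receptors, had 4.33, 7.83 and 8.06 FPKM in siNC and 14.2, 16.7 and 7.92 FPKM in siCNN3 (0.83, adjusted p = 0.268). Rnf31 did not overlap between the groups, as was the case for 2 of the 28, beside 23.1% of all tested genes. Myd88 of siCNN3 replicate 3 lay within the siNC range. Of the further inhibitors, 13 of 14 could be tested, 0 passed, 1 was higher and 0 lower at an unadjusted p below 0.05, against that background, and the median was 0.01. N4bp1, a suppressor of cytokine responses, had a log2 fold change of 0.66 (adjusted p = 0.127). It passed in 1 of the 16 settings, without siCNN3 replicate 3 (adjusted p = 0.0318 in limma), and the highest adjusted p was 0.432. Bcl3, a nuclear IκB-like protein, had a log2 fold change of −0.58 (adjusted p = 0.346).

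The downstream list differed in its count. Of 37 textbook κB target genes 28 could be tested, and 6 were higher in siCNN3 and 0 lower at the adjusted threshold, beside 1.73% and 0.336% of all tested genes. The median log2 fold change of the list was 0.35, beside 0.03 over all tested genes, and 16 of the 28 had groups that did not overlap, beside 23.1% of all tested genes. The list was written with earlier results of these data known. At an unadjusted p below 0.05, 13 were higher and 3 lower, beside the 9.94% and 6.14% of all tested genes. The 3 lower ones were C3, Mmp9 and Sod2, with log2 fold changes of −0.77, −0.64 and −0.55.

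The chemokine genes Cxcl10, Ccl5 and Ccl7 rose. Of the other tested chemokine genes of the list, none was called, with log2 fold changes of 1.35 for Ccl2, −0.21 for Cxcl1 and −0.71 for Cxcl5. Cxcl10 had 0.846, 7.90 and 1.14 FPKM in siNC and 437.6, 409.5 and 95.4 FPKM in siCNN3 (log2 fold change 6.30, SE 0.780, adjusted p = 0.0152 in limma). Ccl5 had 4.67, 11.03 and 12.3 FPKM in siNC and 460.9, 454.0 and 327.7 FPKM in siCNN3 (5.41, SE 0.332, adjusted p = 0.00354). Ccl7 had 98.6, 166.8 and 82.9 FPKM in siNC and 413.9, 318.1 and 267.4 FPKM in siCNN3 (1.55, SE 0.280, adjusted p = 0.0492). For Cxcl10, Ccl5 and Ccl7 the siCNN3 values were all above the siNC values, and siCNN3 replicate 3 was the lowest of its group. Other genes of the list were highest in that library, among them Irf1 (40.6, 39.8 and 62.9 FPKM in siCNN3) and Gadd45b (59.9, 56.4 and 91.3 FPKM in siCNN3).

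Complement factor B and a pair of cytokines made up the rest of the 6. Cfb, of the alternative complement pathway, had 1.21, 12.3 and 5.85 FPKM in siNC and 188.6, 183.7 and 102.8 FPKM in siCNN3 (log2 fold change 4.71, adjusted p = 0.0189 in limma). Il6 had 13.2, 7.59 and 5.66 FPKM in siNC and 30.6, 30.7 and 26.7 FPKM in siCNN3 (1.70, adjusted p = 0.0333). Il15, which supports natural killer and memory T cells, had 0.381, 0.223 and 0.365 FPKM in siNC and 3.91, 3.46 and 2.63 FPKM in siCNN3 (1.70, adjusted p = 0.0099). The number of called targets was 1 without siCNN3 replicate 2 or without siNC replicate 3 and 2 without siCNN3 replicate 1. Over the 16 settings, the reported one included, Ccl5 passed in 16, Il15 and Cfb in 13, Cxcl10 in 12, Il6 in 9 and Ccl7 in 7, and Il15 was below the filter in 1.

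**Figure D4:**
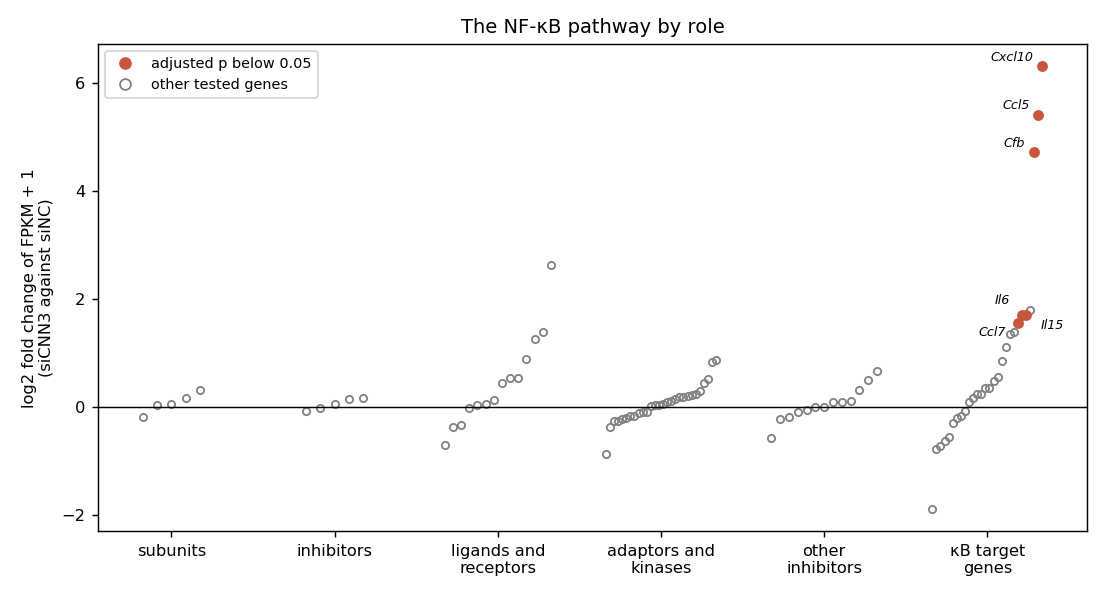
Log2 fold change of FPKM + 1, siCNN3 against siNC (vertical axis), for each tested gene of the subunits, the inhibitors and the 4 further pathway lists, with genes in order of their value and filled points for an adjusted p below 0.05. The subunits and inhibitors sit between −0.18 and 0.31, and the 6 filled points are all κB target genes.

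Several of these targets also respond to interferon, and an interferon response list was higher in the same libraries. Of its 20 genes 11 passed as higher in siCNN3 and 0 as lower, beside 1.73% and 0.336% of all tested genes. Oas2 and Cmpk2, with siNC means of 0.212 and 0.082 FPKM, passed the filter only through the siCNN3 group. At an unadjusted p below 0.05, 19 were higher and 0 lower, beside 9.94% and 6.14%, and the median log2 fold change was 3.79. The list's mean log2 level against the siNC mean was −1.08, 1.18 and −0.10 in siNC and 3.91, 4.19 and 2.95 in siCNN3. Their part in the change of the κB targets was not tested. Markers of other cells were few, as 2 of 10 blood and immune markers had a row, Cd68 and Lyz2, with a sum of 4.72 to 10.2 FPKM in siNC and 2.81 to 4.04 FPKM in siCNN3. Their part, and that of the lower muscle markers, was not tested.

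The κB consensus was also looked for in the promoters of the targets. Of the 28 tested targets 17 had a promoter in the RefSeq table, and 9 of these held at least 1 match. The called genes among the 17 were Cxcl10, with 3 matches in 1 promoter, and Il6, with 1. The median log2 fold change was 0.485 for the 9 targets with a match and 0.036 for the 8 without, none of which was called. Of the 5 NF-κB genes with a match, none was called. Whether matches go with a change was not tested.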

How the data were processed

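Total RNA from 6 samples of C2C12 cells was sequenced. The authors deposited 1 table of FPKM values per transcript. The submitters' processing notes name Bowtie 0.12.2 and the builds mm8 and mm10 with no role given. The program that computed FPKM, the handling of strand and the depth are not given in the sources used here, so no counting error can be stated.

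Transcript identifiers without version were matched to GENCODE M21 (GRCm38). Of 24023 transcripts 23949 matched, and the remaining 74 (0.159% to 0.220% of summed FPKM) were left out. FPKM was summed per gene symbol. Genes whose average across libraries reached 0.5 FPKM entered limma 3.58.1 (R 4.3.3) with a mean-variance trend on log2(FPKM + 1), with Benjamini-Hochberg adjustment over all 11593 tested genes and a threshold of 0.05. Transcripts were fitted likewise. The script was tested on simulated data. Single members were also tested with a two-sided exact permutation test. Groups were taken from the sample titles. Alternatives were another pseudocount, other filters, other scalings, a replicate block, no trend, subsets of transcripts and leaving out each library.

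The members and the gene lists were chosen with earlier results of these data known. All members and Cnn3 were named. Of each pathway list the called genes (at most 6) or, with none called, those with the 2 smallest p were named, as were the 3 genes most like the member with the smallest p. Tnf, some targets that were not called, the interferon list and the marker genes were given besides. Figures were drawn with matplotlib 3.10.9.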

Additional observations from a re-analysis of the deposited data

How the results depend on the processing

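None of the 10 NF-κB genes passed the threshold in limma as reported or in any of the 15 alternatives, and none of their transcripts did in the alternatives run on transcripts. The direction of 7 genes turned in at least 1 alternative. Quantile normalization, which moved the median of all genes from 0.03 to −0.05, gave −0.050 for Nfkb2, −0.052 for Nfkbiz and −0.066 for Rela. Leaving out 1 library at a time gave log2 fold changes from −0.39 to 0.52 for Nfkb1, from −0.0034 to 0.11 for Nfkb2, from −0.026 to 0.28 for Nfkbia, from −0.20 to 0.025 for Nfkbie, from −0.13 to 0.23 for Nfkbiz, from −0.059 to 0.086 for Rela and from −0.17 to 0.053 for Tnfaip3. Rel, Relb and Nfkbib kept their direction throughout, with ranges of 0.10 to 0.42, −0.25 to −0.074 and 0.060 to 0.24, and the lowest size was without siCNN3 replicate 3 for Rel and Relb and without siNC replicate 3 for Nfkbib.

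The 200 genes higher in siCNN3 became 62 with a replicate block and 16 to 443 without 1 library. The 39 lower genes became 63 with median-of-ratios scaling, 93 with quantile normalization, 6 with the replicate block and 4 to 159 without 1 library. Without 1 library, the called ligands and receptors ranged from 0 to 2, the further inhibitors from 0 to 1 and the κB targets from 1 to 8, with 4 under the replicate block. The cause of these shifts was not tested. Whether the replicate numbers pair the samples is not known. The deviations of same-numbered libraries from their group means correlated with r = −0.28, 0.31 and −0.02, and not every library correlated best with its own number. With 3 libraries per group these values depend on one another and cannot decide it. With 3 libraries per group and no counts, small differences of low genes such as Rel may have been missed.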
